A study of Mus musculus with 16 samples.

Results

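Muscle stores quickly usable energy as phosphocreatine and as glycogen, and the 10 genes described here encode enzymes of these stores. The list was chosen with earlier results of these data known. It holds the creatine kinases Ckm, Ckb, Ckmt1 and Ckmt2 and the glycogen phosphorylases Pygm, Pygb and Pygl. The phosphorylase kinase subunit Phka1, the AMP deaminase Ampd1 and the glycogen synthase Gys1 complete it. All 10 were found among the 24497 genes of the series, and 7 of them were among the 14972 genes with enough counts to be tested. The mitochondrial creatine kinases Ckmt1 and Ckmt2 and the liver phosphorylase Pygl did not pass the filter on low counts.

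Creatine kinases move phosphate between ATP and creatine. Proliferating myoblasts are known for the brain-type enzyme (Ckb), and differentiated muscle fibres for the muscle-type enzyme (Ckm). Glycogen phosphorylase releases glucose units from glycogen, again in a muscle form (Pygm, absent in McArdle disease), a brain form (Pygb) and a liver form (Pygl). Phosphorylase kinase activates it, with Phka1 as the muscle alpha subunit, and glycogen synthase (Gys1 in muscle) builds the store. AMP deaminase 1 removes AMP in contracting muscle.

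Poly(A) RNA was sequenced from C2C12, a mouse myoblast line whose source is labelled as skeletal muscle of C57BL/6 mice at post natal day 21. The 8 groups of 2 libraries combined a genotype label (wild type, or MYOD-/- made with CRISPR-Cas9 and screening of single cells), a stably transfected vector (a control, EV, or spliced MUNC, a noncoding RNA) and a culture condition. Cells were proliferating (growth medium, GM) or differentiating (DM, marked DM3 by the submitters). Every group therefore carries a vector, and whether each line is 1 clone, and whether the 2 libraries of a group came from separate cultures, is not stated. The p-values below measure the spread between these libraries, which may be technical.

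Total estimated counts ran from 35.8 M to 108 M per library (median 61.2 M). The level of Myod1, the gene named in the genotype, went against the labels. It was 0.291 and 0.0191 CPM (counts scaled to library size) in the 2 WT-labelled EV libraries in GM, and 13.9 and 11.9 CPM in the MYOD-/- labelled EV libraries in GM. In DM it was 0.143 and 0.0136 CPM against 24.4 and 33.1 CPM. Which bases of Myod1 were deleted is not stated, so reads outside them check nothing in the MYOD-/- labelled lines. That limit does not apply to the WT-labelled EV line, which had 18 and 1 counts in GM and 13 and 1 in DM. Genotypes are therefore given as labels throughout. MUNC (Gm45923) was at 1821 to 2670 CPM in the WT-labelled MUNC libraries and at 43 to 132 CPM in the MYOD-/- labelled ones. The EV libraries had 1.15 to 12.4 CPM of it. In the MYOD-/- labelled lines in DM it was at 12.4 and 2.23 CPM with EV and at 43 and 50.4 CPM with MUNC. The gene Zrsr1 took 0.00795% to 0.0348% of counts in the libraries numbered replicate 1 and 1.49% to 13% in those numbered replicate 2, so changes were also computed within each replicate number.

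The RefSeq promoters of the 3 members with the largest changes are shown so that the DNA upstream of genes that moved in the same libraries can be read beside their levels. Each is the 250 bases before the annotated start on GRCm38.p6, 5′ to 3′ on the gene's strand, with capitals for matches to an E-box (CANNTG, the core bound by MyoD-family factors), to MCAT (CATTCC, read on both strands) or to the MEF2 consensus.
Ckm, chr7:19410844-19411093, plus strand: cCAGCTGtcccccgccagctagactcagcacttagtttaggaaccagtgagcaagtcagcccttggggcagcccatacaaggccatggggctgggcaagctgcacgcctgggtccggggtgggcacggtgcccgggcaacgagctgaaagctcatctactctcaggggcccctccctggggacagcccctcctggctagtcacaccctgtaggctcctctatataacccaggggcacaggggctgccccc
Pygm, chr19:6384158-6384407, plus strand: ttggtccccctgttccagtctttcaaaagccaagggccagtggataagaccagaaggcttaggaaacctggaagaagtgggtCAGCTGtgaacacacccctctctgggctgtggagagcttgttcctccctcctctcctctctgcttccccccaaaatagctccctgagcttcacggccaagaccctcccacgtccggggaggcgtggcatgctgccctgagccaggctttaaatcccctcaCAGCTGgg
Ckb, chr12:111672339-111672588, minus strand: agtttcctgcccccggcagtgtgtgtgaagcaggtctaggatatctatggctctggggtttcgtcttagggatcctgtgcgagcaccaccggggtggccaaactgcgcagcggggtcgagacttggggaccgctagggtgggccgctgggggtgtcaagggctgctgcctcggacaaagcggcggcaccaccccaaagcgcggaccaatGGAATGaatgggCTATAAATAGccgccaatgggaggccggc

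The Ckm window held 1 E-box, which began 249 bases before the start, and the Pygm window held 2, at 168 and 8 bases before it. The Ckb window held none, and instead an MCAT match on the opposite strand 41 bases before the start and a MEF2 consensus 29 bases before it. Among 32851 RefSeq promoter windows of the same length, 66.2% held an E-box, 31.8% held 2 or more, 12.6% held an MCAT match and 2.92% a MEF2 consensus. Entries were found for 9 of the 10 genes. A match in these windows is a description of the letters, not of a bound site.

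Expression per length set the members far apart. Pygb was the most abundant enzyme transcript, at 30.8 to 70.6 TPM (scaled to transcript length and library size) over the 16 libraries, followed by Gys1 at 25.6 to 45.9 TPM, and these ranges overlapped. Phka1 ran from 7.15 to 17.3 TPM and Ckb from 0.81 to 27.3 TPM. The muscle isoforms Pygm (0.097 to 8.21 TPM) and Ckm (0 to 7.91 TPM) had medians of 0.331 and 0.105 TPM. The remaining 4 members stayed below 0.4 TPM in each library: Ampd1 reached 27 counts, Ckmt1 5 counts, and Ckmt2 and Pygl 2 counts. A limit of 3 counts corresponds to 0.0287 to 0.0803 CPM in these libraries, so levels under it could not be told from none. Fewer expressing cells and less RNA per cell cannot be told apart in bulk RNA.

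**Figure D1:**
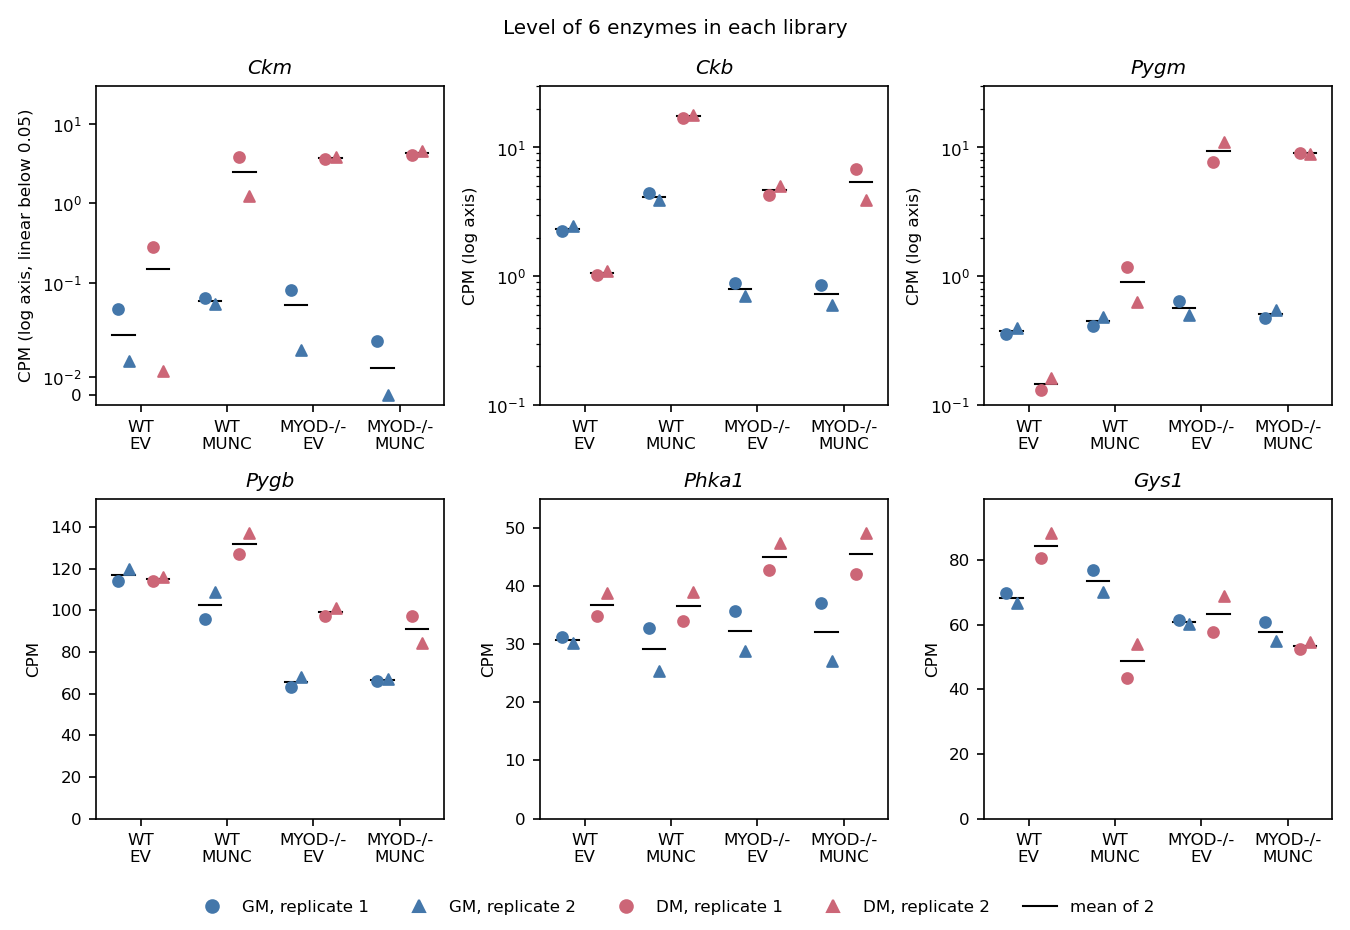
CPM of 6 members in each of the 16 libraries, by line (horizontal axis, genotype label and vector) and medium (blue GM, red DM), with circles for replicate 1, triangles for replicate 2 and a bar at the mean of 2. The Ckm, Ckb and Pygm panels have log axes, that of Ckm linear below 0.05 CPM. Pygm in DM stood at 7.73 to 11.1 CPM in the MYOD-/- labelled lines and at 0.132 to 1.18 CPM in the WT-labelled lines.

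The first question was how the enzymes changed when each line moved from GM to DM. In the WT-labelled EV line 0 members rose and 2 fell (Ckb and Pygm), where 19.2% of all genes tested rose and 18.3% fell. In the MYOD-/- labelled EV line 4 of 7 rose (Ckm, Ckb, Pygm and Pygb) and 0 fell, against 23.5% and 19.7% of all genes. The WT-labelled MUNC line had 4 that rose (the same 4 names) and 1 that fell (Gys1), against 20.5% and 19.2% of all genes. In the MYOD-/- labelled MUNC line 5 rose (these 4 and Phka1) and 0 fell, against 24.4% and 20.4%. The members' median log2 fold change was -0.03, 0.60, 0.36 and 0.50 in these 4 lines, and that of all genes tested was 0.02, 0.08, 0.06 and 0.05. On the log2(TPM + 1) scale the share of passing genes that rose was 65.5% to 72.6% in these comparisons, against 51.2% to 54.4% in the count fit.

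**Figure D2:**
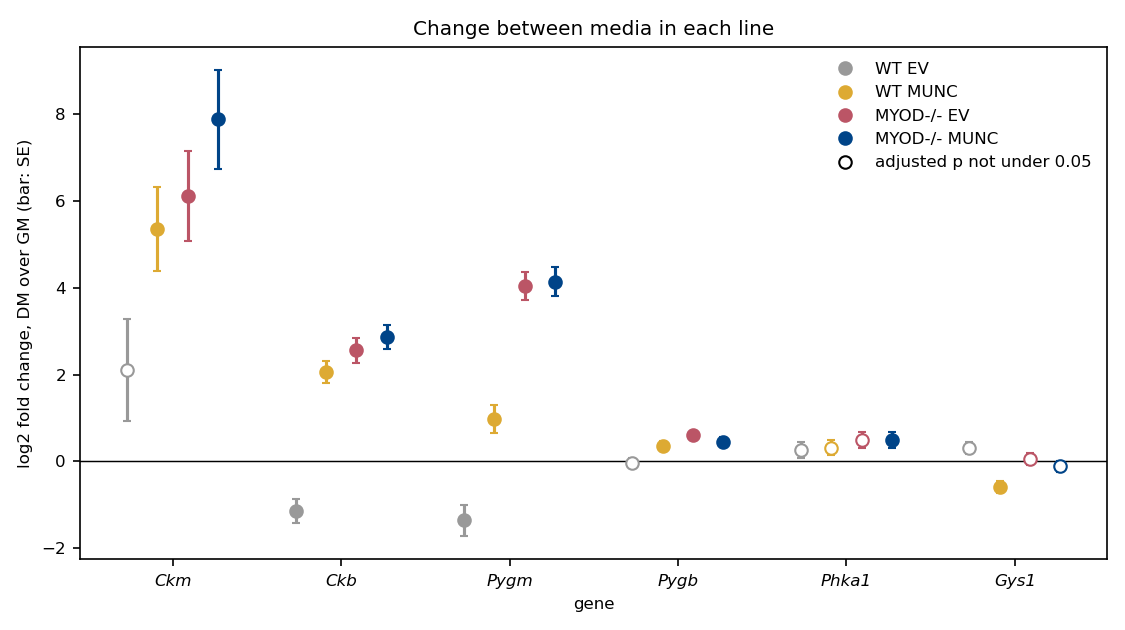
Log2 fold change from GM to DM (vertical axis) of 6 members in the 4 lines, with bars for the SE of the fit and open points where the adjusted p was not under 0.05. Ckb and Pygm lie below 0 in the WT-labelled EV line, at -1.14 and -1.35, and above 0 in the other 3 lines.

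Ckm, the muscle creatine kinase (chromosome 7, 19411094 to 19421583), was close to undetected in GM and present in DM in 3 of the 4 lines. In GM its counts were 3 and 1 (WT-labelled EV), 4 and 3 (WT-labelled MUNC), 3 and 1 (MYOD-/- labelled EV) and 2 and 0 (MYOD-/- labelled MUNC). In DM they were 187 and 216 in the MYOD-/- labelled EV line, 266 and 385 in the MYOD-/- labelled MUNC line, and 193 and 128 in the WT-labelled MUNC line. All 6 of these DM libraries lay above all 8 GM libraries. The WT-labelled EV line stood apart, with 26 counts in 1 DM library and 1 in the other.

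On the CPM scale Ckm in DM was 3.72 ± 0.189 (SD, n = 2) in the MYOD-/- labelled EV line, 4.32 ± 0.34 in the MYOD-/- labelled MUNC line and 2.51 ± 1.81 in the WT-labelled MUNC line. The log2 fold change over GM was 6.11 ± 1.04 (SE) with an adjusted p of 0.00081, 7.87 ± 1.13 (0.00029) and 5.35 ± 0.96 (0.00129), in that order. These fitted values rest on few GM counts. The ratio of scaled counts was 71.9 in the MYOD-/- labelled EV line (95% counting interval 27.9 to 265), 262 in the MYOD-/- labelled MUNC line (72.1 to 2165) and 35 in the WT-labelled MUNC line (16.8 to 87.7), and such intervals cover counting error only. Leaving out 1 library kept all 3 calls and moved the sizes. The log2 value became 11.09 or 7.02 without the first or second GM library of the MYOD-/- labelled MUNC line, 7.05 or 5.43 for those of the MYOD-/- labelled EV line, and 4.31 or 5.95 without the first or second DM library of the WT-labelled MUNC line.

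In the WT-labelled EV line the Ckm value was 2.10 ± 1.18 with an adjusted p of 0.185. It was -1.22 (0.608) without the first DM library and 2.97 (0.0292) without the second, so 1 library decides its direction. Within replicate 1 the difference was 1.98, and within replicate 2 it was -0.17. The ratio of scaled counts was 4.68, with an interval of 1.63 to 18.4. Ckm overlaps A930016O22Rik on the opposite strand, and no source used here gives the strand setting of the counting. That gene had 14 to 65 counts in the 16 libraries, 43 and 21 of them in the MYOD-/- labelled EV line in DM, where Ckm had 187 and 216. The 26 Ckm counts of the WT-labelled EV library lie within that range. In DM the 2 libraries of that line had 35 and 41 counts of A930016O22Rik, where Ckm had 26 and 1. The part of the overlap in the Ckm counts was not tested.

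Ckb, the brain creatine kinase (chromosome 12, 111669355 to 111672338), fell in DM in the WT-labelled EV line and rose in the other 3 lines. Its CPM in the WT-labelled EV line was 2.25 and 2.44 in GM and 1.03 and 1.1 in DM. In the WT-labelled MUNC line it was 4.4 and 3.92 in GM and 17 and 17.8 in DM, the highest of the 8 groups. These groups did not overlap, and the 2 libraries of each lay close together.

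The MYOD-/- labelled lines began lower. Ckb was at 0.883 and 0.702 CPM in GM with EV and at 0.855 and 0.602 CPM with MUNC. In DM it reached 4.31 and 5.03 CPM with EV and 6.81 and 3.92 CPM with MUNC. The log2 fold change was -1.14 ± 0.27 (adjusted p 0.00633) in the WT-labelled EV line and 2.06 ± 0.26 (0.000147) in the WT-labelled MUNC line. It was 2.56 ± 0.29 (5.76e-05) in the MYOD-/- labelled EV line and 2.87 ± 0.28 (2.82e-05) in the MYOD-/- labelled MUNC line. All 4 calls were kept in each of the alternatives tried, and the direction was the same within each replicate number (-1.10 and -1.13 in the WT-labelled EV line).

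Because Ckm and Ckb moved by different amounts, the make-up of the summed creatine kinase TPM differed between lines. In GM Ckm made up 0% to 8.73% of it in the 8 libraries. In DM it made up 46.6% and 44.2% in the MYOD-/- labelled EV libraries and 38.5% and 54.7% in the MYOD-/- labelled MUNC libraries. The WT-labelled MUNC libraries had 18.9% and 6.72% in DM, from a larger total of 33.7 and 27.8 TPM against 13.6 to 18.1 TPM in the MYOD-/- labelled lines. The WT-labelled EV libraries had 21.4% and 1.5%, of 2.16 and 1.64 TPM.

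The mitochondrial enzymes, which couple ATP export to creatine, added little RNA. Ckmt1 was above 0 in 9 libraries and Ckmt2 in 8, at 0.121 and 0.0538 TPM at most. The 11.2% and 11.9% of creatine kinase TPM that Ckmt1 held in 2 libraries of the MYOD-/- labelled lines in GM came from 4 and 5 counts. The Ckmt1 locus overlaps Strc, which was at 0 counts in all 16 libraries.

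**Figure D3:**
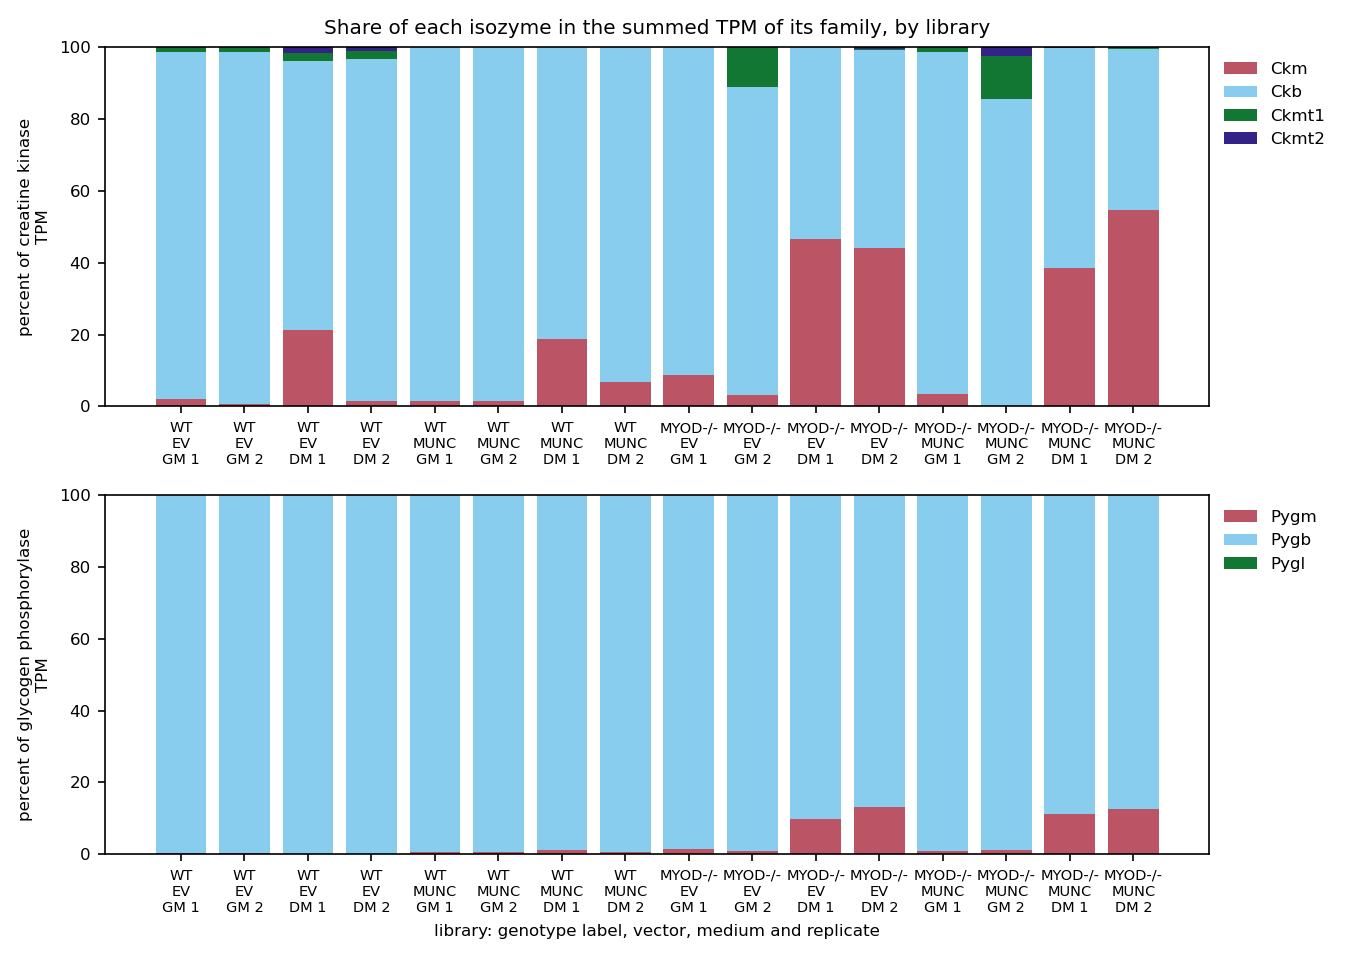
Share of each isozyme (vertical axis, percent) in the summed TPM of the creatine kinases (top) and glycogen phosphorylases (bottom), 1 bar per library. The Ckm share in DM was 38.5% to 54.7% in the MYOD-/- labelled libraries, and the Pygm share there was 9.78% to 13.1%.

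Pygm, the muscle phosphorylase (chromosome 19, 6384408 to 6398464), was at a like low level in all lines in GM and high in DM in the MYOD-/- labelled lines alone. In GM its CPM was 0.356 and 0.4 (WT-labelled EV), 0.412 and 0.488 (WT-labelled MUNC), 0.642 and 0.501 (MYOD-/- labelled EV) and 0.473 and 0.548 (MYOD-/- labelled MUNC). In DM it was 7.73 and 11.1 CPM in the MYOD-/- labelled EV line and 9.05 and 8.98 CPM in the MYOD-/- labelled MUNC line. The WT-labelled EV line fell to 0.132 and 0.163 CPM, 12 counts in each library, and the WT-labelled MUNC line had 1.18 and 0.631 CPM. No DM library overlapped the GM libraries of its own line.

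The rise of Pygm in the MYOD-/- labelled lines was 4.04 ± 0.33 with EV (adjusted p 1.01e-05) and 4.14 ± 0.33 with MUNC (8.52e-06) in log2 units, and held in each alternative. The fall in the WT-labelled EV line was -1.35 ± 0.36 (0.0127). It missed the threshold without the second GM library (adjusted p 0.0628) or the first DM library (0.0876), on the log2(TPM + 1) scale (0.387), and when only the groups compared were fitted (0.078). The rise in the WT-labelled MUNC line was 0.98 ± 0.32 (0.0291). It missed the threshold without the first GM library (0.144), the second GM library (0.0751) or the first DM library (0.292, with a log2 value of 0.47), and in the fit of only these groups (0.142). Within replicates this rise was 1.45 and 0.35.

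Pygb, the brain phosphorylase (chromosome 2, 150786796 to 150831748), held most of the phosphorylase RNA. It was at 114 and 120 CPM in GM and 114 and 116 CPM in DM in the WT-labelled EV line, where the groups overlapped. In the MYOD-/- labelled lines it rose from 63.3 and 67.9 to 97.2 and 101 CPM with EV and from 66 and 67.1 to 97.5 and 84.5 CPM with MUNC. The WT-labelled MUNC line went from 95.8 and 109 to 127 and 137 CPM. The log2 fold change was -0.03 ± 0.11 (adjusted p 0.876) in the WT-labelled EV line, 0.60 ± 0.11 (0.0013) in the MYOD-/- labelled EV line, 0.45 ± 0.11 (0.00623) in the MYOD-/- labelled MUNC line and 0.36 ± 0.11 (0.0215) in the WT-labelled MUNC line. The MYOD-/- labelled MUNC call was lost without the first DM library of that line (0.0948) and in the fit of only its groups (0.148). The WT-labelled MUNC call was lost without the first GM library (0.161), the first DM library (0.0592) or the second DM library (0.134), with no filter on low counts (0.0729) and in the fit of only its groups (0.15).

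Pygm thus made up 9.78% to 13.1% of phosphorylase TPM in the 4 MYOD-/- labelled DM libraries and 0.158% to 1.37% in the other 12. The liver form Pygl had 1 or 2 counts in 2 libraries and 0 in the other 14.

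Phka1, the phosphorylase kinase subunit (chromosome X, 102513975 to 102644301), was at 35.7 and 28.8 CPM in GM and 42.8 and 47.4 CPM in DM in the MYOD-/- labelled EV line, and at 37.2 and 27.2 CPM against 42.1 and 49.1 CPM in the MYOD-/- labelled MUNC line. These groups did not overlap, but the GM libraries numbered 1 lay above those numbered 2. The log2 fold change was 0.49 ± 0.18 with EV (adjusted p 0.0501) and 0.50 ± 0.18 with MUNC (0.0419). The second was lost without the second GM library (0.349), the first DM library (0.0752) or the second DM library (0.26), with no filter (0.0691), with DESeq2's size factors (0.0532) and in the fit of only its groups (0.188). The first passed on the log2(TPM + 1) scale (0.00978) and with a filter of 5 CPM in 2 libraries (0.0462). Both WT-labelled lines were higher in DM without passing, by 0.26 (0.283) with EV and 0.32 (0.18) with MUNC. Of its 2 transcripts, the longer held 98.6% to 100% of Phka1 TPM in every library.

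Gys1, the muscle glycogen synthase (chromosome 7, 45434839 to 45456617), passed the test in 1 line. In the WT-labelled MUNC line it fell from 77 and 70.2 CPM in GM to 43.6 and 54.1 CPM in DM, a log2 fold change of -0.59 ± 0.13 (adjusted p 0.00423). The WT-labelled EV line had 69.7 and 66.8 CPM in GM and 80.7 and 88.2 CPM in DM (0.31 ± 0.13, adjusted p 0.0847). On the log2(TPM + 1) scale the latter passed (0.46, adjusted p 0.00623), as it did with a stricter filter on low counts (0.33, 0.0399). The MYOD-/- labelled lines gave 0.06 (0.747) with EV and -0.11 (0.508) with MUNC. On the log2(TPM + 1) scale these became 0.30 (0.0401) and 0.14 (0.291), so the direction in the MUNC line turned with the scaling. Gys1 overlaps Ruvbl2 on the other strand, whose counts of 1515 to 7009 were of the same order. Ruvbl2 had 5629 and 5227 counts in GM and 1515 and 3666 in DM in the WT-labelled MUNC line, where Gys1 had 4860 and 3886, then 2222 and 5650. The part of that overlap in the result was not tested.

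Ampd1, the muscle AMP deaminase, had 0 to 27 counts and passed the filter without passing the test in any of the 14 comparisons. Its highest levels were 0.493 and 0.273 CPM, in 1 GM and 1 DM library of the MYOD-/- labelled MUNC line whose partners had 0.107 and 0.0307 CPM.

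The second question was how the lines with different genotype labels differed. These directions rest on labels that the level of Myod1 went against. With EV in GM, 0 of 7 members were higher in the MYOD-/- labelled line and 2 were lower, where 4.58% of all genes were higher and 5.77% lower. Ckb was lower by a log2 value of -1.56 ± 0.28 (adjusted p 0.00529) and Pygb by -0.83 ± 0.11 (0.000767), and both were lost in a fit of only these groups (0.0954 and 0.063). With EV in DM, 3 were higher and 1 lower, against 15.3% and 16.1% of all genes (59.2% of passing genes higher on the log2(TPM + 1) scale, 48.7% in the count fit). Pygm led with 5.99 ± 0.37 (2.78e-06), followed by Ckm with 4.56 ± 0.84 (0.00212) and Ckb with 2.13 ± 0.27 (0.000235). Gys1 was lower, by -0.42 ± 0.13 (0.0314). The Ckb call in GM was lost without the second MYOD-/- labelled library (0.0633). The Gys1 call was lost without the second WT-labelled library (0.132) or the first MYOD-/- labelled library (0.189), on the log2(TPM + 1) scale (0.0589) and in the fit of only these groups (0.0763). Ckm kept its call, at 7.86 without the first WT-labelled DM library and 3.67 without the second.

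Ckb therefore stood on opposite sides in the 2 media. With MUNC in place of EV it was lower in the MYOD-/- labelled line in both, by -2.50 ± 0.28 in GM (adjusted p 0.000301) and -1.70 ± 0.26 in DM (0.000842). In the MUNC lines in GM, 0 members were higher and 2 lower (Ckb and Pygb), against 4.98% and 5.02% of all genes. In DM, 1 was higher (Pygm, 3.34 ± 0.31, adjusted p 3e-05) and 2 lower (Ckb and Pygb), against 12.8% and 9.89%. Ckm gave 0.80 ± 0.69 (0.453) there (1.80 without the first WT-labelled library and 0.19 without the second), with 3.79 and 1.22 CPM in the WT-labelled libraries and 4.08 and 4.56 CPM in the MYOD-/- labelled ones. Pygb was lower by -0.62 ± 0.11 in GM (0.00458) and -0.53 ± 0.11 in DM (0.00513). The first was lost without the second WT-labelled library (0.0511), and the second without the second WT-labelled (0.0537) or second MYOD-/- labelled library (0.0589). In a fit of only the groups compared both GM calls were lost (Ckb 0.0689, Pygb 0.199).

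**Figure D4:**
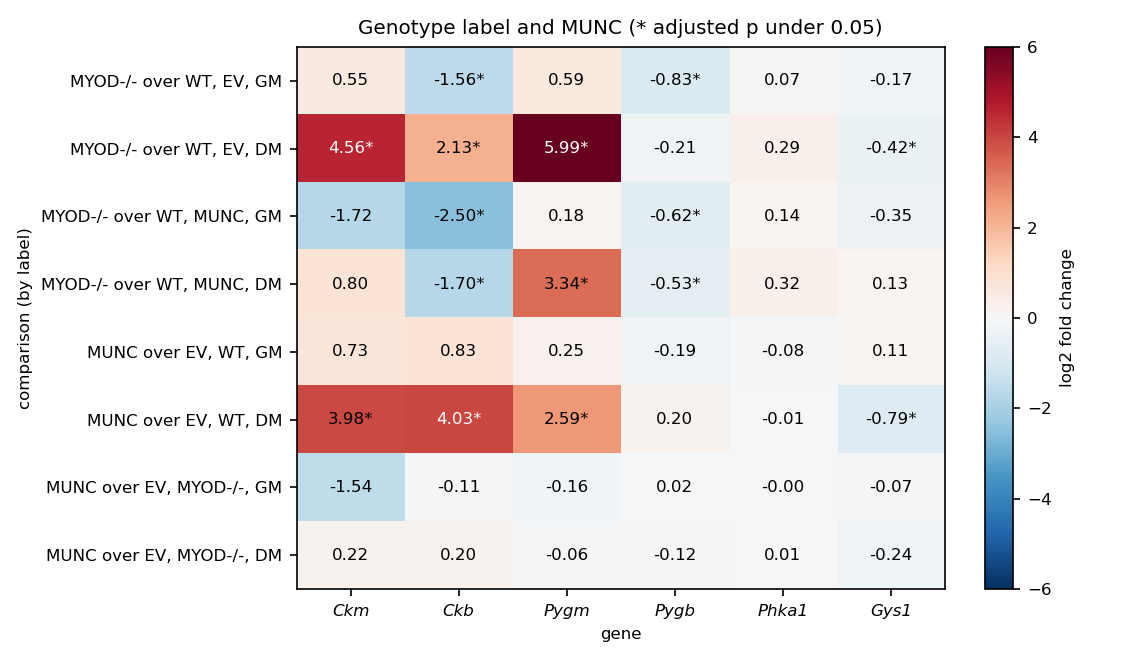
Log2 fold change of 6 members (columns) for the genotype label and for MUNC against EV (rows), with colour from blue (lower) to red (higher) and a star where the adjusted p was under 0.05. The MUNC rows have 4 stars in the WT-labelled line in DM (Ckm 3.98, Ckb 4.03, Pygm 2.59 and Gys1 -0.79) and 0 elsewhere.

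The third question was how MUNC compared with EV. Myod1 itself differed between the WT-labelled lines, at 0.291 and 0.0191 CPM with EV and 3.72 and 4.06 CPM with MUNC in GM. In DM it was at 0.143 and 0.0136 CPM against 3.18 and 1.7 CPM. In the MYOD-/- labelled lines it was lower with MUNC, at 8.17 and 4.18 CPM in GM and 16 and 15 CPM in DM. The EV libraries there had 13.9 and 11.9 CPM in GM and 24.4 and 33.1 CPM in DM. The part of Myod1 in the comparisons below was not tested. In the WT-labelled line in GM 0 members passed in either direction, against 6.04% of all genes higher and 7.71% lower. Ckb was nearest, at 0.83 ± 0.26 (adjusted p 0.057), and passed by DESeq2 (0.0228). In DM 3 members were higher and 1 lower, against 15.6% and 17.7% of all genes. Ckb was higher by 4.03 ± 0.29 (2.92e-06), from 1.07 ± 0.0484 CPM (SD, n = 2) to 17.4 ± 0.556 CPM. Ckm was higher by 3.98 ± 0.83 (0.00363) and Pygm by 2.59 ± 0.35 (0.000234), from 0.147 ± 0.0221 to 0.905 ± 0.386 CPM. Gys1 was lower by -0.79 ± 0.13 (0.000914), from 84.4 ± 5.29 to 48.8 ± 7.38 CPM. Leaving out a library ended none of these 4 calls. The Ckm value was 7.29 or 3.10 without the first or second EV library and 2.97 or 4.59 without the first or second MUNC library.

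In the MYOD-/- labelled line 0 members passed in GM or in DM, and 0 of all genes did (0% higher and 0% lower in both media). MUNC was at 43 to 132 CPM in the MUNC libraries of this line, against 1821 to 2670 CPM in the WT-labelled ones. By edgeR 191 genes in GM and 152 in DM had an unadjusted p under 0.05, 0 of them members. A share of 0.05 of the 14972 genes would have such a p if no gene differed, and both counts lie below it. The count of 0 members therefore says little about the members. DESeq2 called 0 genes in GM and 4 in DM, and limma on log2(TPM + 1) called 3 and 7. The DM levels were 3.58 and 3.85 CPM with EV against 4.08 and 4.56 CPM with MUNC for Ckm, and 7.73 and 11.1 CPM against 9.05 and 8.98 CPM for Pygm. These comparisons share their control libraries with the genotype and medium comparisons.

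Whether the change with medium differed between lines was tested directly. Between the EV lines, 2 members had a higher log2 change in the MYOD-/- labelled line and 0 a lower one, against 1.66% and 0.922% of all genes. The difference of log2 fold changes was 5.40 ± 0.49 for Pygm (adjusted p 0.000956) and 3.70 ± 0.39 for Ckb (0.00168). Ckm gave 4.01 ± 1.92 (0.31) and Pygb 0.62 ± 0.15 (0.0603), and both passed on the log2(TPM + 1) scale (0.00859 and 0.0128). Pygb also passed by DESeq2 (0.00778). The Ckm value was 7.27 (0.0644) without the first WT-labelled DM library. Between MUNC and EV in the WT-labelled lines, 2 members had a higher log2 change with MUNC (Ckb 3.20 ± 0.37, adjusted p 0.000954, and Pygm 2.34 ± 0.48, 0.0241) and 1 a lower one (Gys1 -0.90 ± 0.18, 0.0235), against 1.24% and 2.09% of all genes. Ckb kept its call whichever of the 8 libraries was left out. Pygm lost it without any 1 of 7 libraries, the exception being the second WT-labelled MUNC library in DM, with adjusted p of 0.0571 to 0.104, and on the log2(TPM + 1) scale (0.149) or in the fit of only the 4 groups (0.107). Gys1 lost it without either WT-labelled EV library in GM (0.0614 and 0.106), the second EV library in DM (0.0772), the first MUNC library in GM (0.106) or the first in DM (0.0903).

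Markers of muscle and of other cell types also differed between media, and not all of them followed Ckm and Pygm. The summed TPM of 6 muscle markers (Des, Myog, Myh3, Acta1, Actn2 and Ttn) was 9.52 to 21.8 in the 8 GM libraries. In DM it was 26.7 to 34.1 in the WT-labelled EV line, 37.9 to 94.7 in the WT-labelled MUNC line, 334 to 350 in the MYOD-/- labelled EV line and 403 to 529 in the MYOD-/- labelled MUNC line. All 6 were above 0 in each group, with Actn2 under 1 TPM throughout and Myog, Myh3 and Ttn under 1 TPM in GM. In DM, Myh3 and Ttn stayed under 1 TPM in the WT-labelled EV line, and Ttn in the WT-labelled MUNC line. In the WT-labelled EV line the muscle list did not move as 1: Des went from 14.7 and 8.56 TPM in GM to 29.8 and 25.1 TPM in DM, and Acta1 from 6.81 and 6.62 TPM to 1.93 and 0.289 TPM. Of the other lists of 6, fibroblast markers stood at 15.1 to 509 TPM in GM, and in DM at 471 to 1290 TPM in the WT-labelled lines and 1484 to 3498 TPM in the MYOD-/- labelled ones. Among them Thy1 was under 1 TPM in all libraries, and Lum in all GM groups. Smooth muscle markers stood at 286 to 1768 TPM in GM, and in DM at 211 to 312 TPM (WT-labelled EV), 949 to 1196 TPM (WT-labelled MUNC) and 1775 to 2003 TPM (MYOD-/- labelled). Of these, Myh11 was under 1 TPM in all libraries. Neural and glial markers stood in GM at 28.5 to 28.7 TPM (WT-labelled EV), 11.4 to 15.8 TPM (WT-labelled MUNC) and 18.1 to 72.9 TPM (MYOD-/- labelled). In DM they were lower in the WT-labelled lines, at 6.1 to 10.5 TPM, and higher in the MYOD-/- labelled ones, at 151 to 351 TPM. Of these 6 markers, 5 were under 1 TPM in all libraries. The part of these lists in the results was not tested. Hepatocyte (0.197 to 3.98 TPM, Ttr at 0), leukocyte (0.836 to 3.32 TPM) and cardiomyocyte markers (0.549 to 7.78 TPM) were low in each library, and adipocyte markers ran from 5.23 to 38.6 TPM with Lep at 0. The adipocyte markers Adipoq, Plin1 and Cidec were also under 1 TPM in all libraries.

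Around the members, 44 other genes of these pathways were listed by function, and 36 were tested. From GM to DM, 6 rose and 7 fell in the WT-labelled EV line, 6 and 7 in the MYOD-/- labelled EV line, 4 and 6 in the WT-labelled MUNC line, and 6 and 6 in the MYOD-/- labelled MUNC line. Of all genes tested, 19.2% to 24.4% rose and 18.3% to 20.4% fell in these comparisons. Their median log2 fold change was 0.10, 0.01, -0.08 and 0.01. The sign pattern of Ckb and Pygm, down in 1 line and up in 3, was not tested for these genes beyond the interactions. Between the EV lines 0 of 36 passed, against 1.66% of all genes higher and 0.922% lower. Between MUNC and EV in the WT-labelled lines 0 of 36 passed, against 1.24% and 2.09%. Both counts are close to these small shares.

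Glycogen breakdown genes that passed all rose: 4 of 7 tested in the WT-labelled EV line, 3 in the MYOD-/- labelled EV line, and 2 in each MUNC line, where 19.2% to 24.4% of all genes rose. The WT-labelled EV count includes Phkg1, the muscle catalytic subunit of phosphorylase kinase (1.01 ± 0.34, adjusted p 0.0341), which lost its call without either GM library (0.13 and 0.124), without the first DM library (0.185), by DESeq2 (0.0988) and in the fit of only its groups (0.145). It also includes Stbd1 (1.14 ± 0.28, 0.00759), lost without the second GM (0.0537) or second DM library (0.0729). In the MYOD-/- labelled EV line the Phkg1 call (1.11 ± 0.37, 0.0294) was lost whichever of the 4 libraries was left out (0.0535 to 0.227) and by DESeq2 (0.121). Gaa, the lysosomal enzyme that degrades glycogen (acid alpha-glucosidase), rose in all 4 lines, by 1.42 ± 0.28 (WT-labelled EV), 1.27 ± 0.28 (MYOD-/- labelled EV), 1.07 ± 0.28 (WT-labelled MUNC) and 1.22 ± 0.28 (MYOD-/- labelled MUNC). In the WT-labelled EV line that was 98.2 and 142 CPM in GM and 311 and 333 CPM in DM. The WT-labelled MUNC call was lost without the first GM library (adjusted p 0.0866). Phkb, the shared beta subunit of phosphorylase kinase, rose by 0.93 ± 0.20 (adjusted p 0.00342) in the MYOD-/- labelled MUNC line, from 33 and 23.5 to 52.7 and 54.8 CPM. It also rose in the MYOD-/- labelled EV line (0.81) and the WT-labelled MUNC line (0.66). The former call was lost without the second GM library (0.0987), and the latter without the second GM library (0.169) or either DM library (0.0897 and 0.0771).

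From GM to DM, 19.2% to 24.4% of all genes rose and 18.3% to 20.4% fell. Of 5 glycogen regulators tested, 1 or 2 rose and 0 fell in each line. Epm2a, which encodes the glycogen phosphatase laforin, was the most changed of these, at 0.129 and 0.0572 CPM in GM and 0.351 and 0.38 CPM in DM in the WT-labelled EV line (1.92 ± 0.41, adjusted p 0.00387). In the MYOD-/- labelled MUNC line it rose by 2.14 ± 0.39 (0.00122), from 0.153 and 0.0913 CPM to 0.522 and 0.581 CPM. Epm2a in GM lay near the limit of 3 counts, and at it (0.0572 CPM) in the second WT-labelled EV library. It also passed in the MYOD-/- labelled EV line (1.27, adjusted p 0.0237) and the WT-labelled MUNC line (1.16, 0.0245), but both calls were lost whichever of the 4 libraries was left out (0.0701 to 0.149 and 0.0612 to 0.147), by DESeq2 (0.0766 and 0.0584), with no filter (0.0549 and 0.0502) and in the fit of only the groups compared (0.0911 and 0.0764). Glycogen synthesis genes went both ways: of 6 tested, 0 to 1 rose and 1 to 2 fell, against the same shares of all genes. Ugp2, which makes UDP-glucose, rose in the MYOD-/- labelled MUNC line by 1.29 ± 0.31 (0.00615), a call lost without the second GM library (0.06). Gbe1, the branching enzyme, fell there by -0.97 ± 0.25 (0.00964), a call lost without the first DM library (0.0716).

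In the adenylate list, where adenylate kinases and the purine nucleotide cycle balance ATP, ADP and AMP, 0 of 8 rose and 3 fell in each line, against 19.2% to 24.4% of all genes that rose and 18.3% to 20.4% that fell. Adsl, adenylosuccinate lyase, fell by -0.78 ± 0.14 in the MYOD-/- labelled EV line (adjusted p 0.00122) and by -0.79 ± 0.14 in the WT-labelled MUNC line (0.00121). Its WT-labelled EV call (-0.41, 0.0404) was lost with no filter (0.0879) and on the log2(TPM + 1) scale (0.105). Ampd2 fell in the MYOD-/- labelled lines, by -0.89 with EV (0.0124) and -0.95 with MUNC (0.00857). Without the second GM library of each line these values were -0.67 and -0.66. Gatm, which catalyses the first step of creatine synthesis, was the only 1 of 3 creatine synthesis and transport genes to pass, and it fell in all 4 lines. In the WT-labelled MUNC line it went from 16.3 and 12.8 to 6.09 and 5.98 CPM (-1.27 ± 0.22, 0.00102). Its WT-labelled EV call was lost without the first GM library (0.104) or either DM library (0.0518 and 0.0739), and its MYOD-/- labelled EV call likewise (0.0673, 0.0516 and 0.0875). The MYOD-/- labelled MUNC call was lost without the first GM (0.3) or first DM library (0.121) and in the fit of only its groups (0.0948). These 3 calls were also lost on the log2(TPM + 1) scale (0.0619, 0.124 and 0.235). Among 7 subunits of AMP-activated protein kinase, 0 or 1 rose and 0 to 2 fell, against the same shares of all genes.

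**Figure D5:**
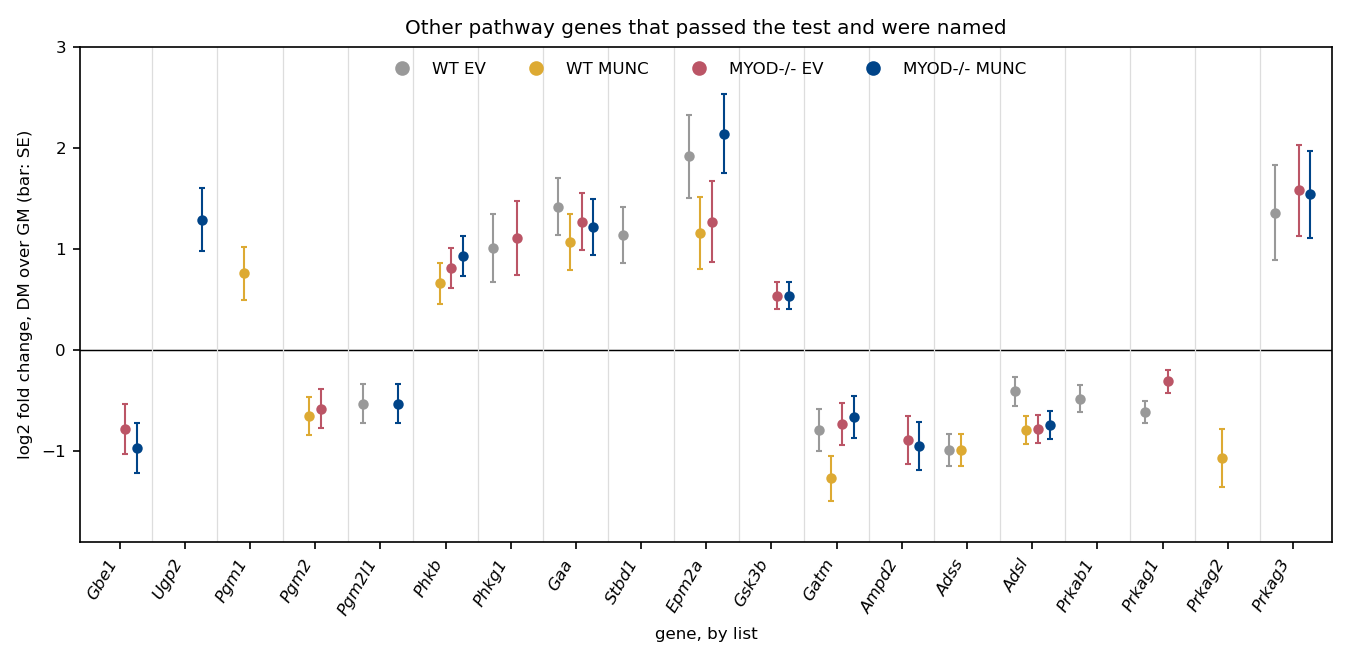
Log2 fold change from GM to DM (vertical axis, bars for the SE) of the pathway genes with the largest passing changes in each list, up to 3 per list and line, coloured by line. Gaa lies above 0 in all 4 lines, at 1.07 to 1.42, and Gatm below 0.

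Likeness of pattern was described by Pearson's r of log2 CPM over the 16 libraries, which share groups and depth. Ckm was most like Itga10 (0.98), Tprgl (0.978) and Chrd (0.972). Pygm was most like Enah (0.974), Atp2b1 (0.969) and the myosin light chain gene Myl4 (0.95). For Ckb the nearest were 1110065P20Rik (0.953), Chst15 (0.951) and S100a13 (0.95), and for Pygb Fndc10 (0.952), Mmp28 (0.95) and Ebpl (0.949). Phka1 was nearest to Arhgef2 (0.951), Dnajb5 (0.947) and Synpr (0.941), and Gys1, less closely, to Gadd45b (0.873), Chac1 (0.869) and Aldh1l2 (0.867). Among the members, Ckm and Pygm had an r of 0.82, Ckm and Phka1 0.75, and Ckm and Ckb 0.73. Pygm and Pygb had -0.08, and Ckm and Gys1 -0.52.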

How the data were processed

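Per the labels' protocols, a NEBNext Ultra Directional kit was used on RNeasy-purified RNA. The submitters' processing notes name mm10, kallisto and bcl2fastq without versions. The authors deposited, per the file headers, estimated counts and TPM for 35818 transcripts in each of 16 libraries. Transcripts were assigned to genes through RefSeq GRCm38.p6 (35492) or GENCODE M21 (188), and 138 without a symbol, with 0.28% to 0.941% of the deposited estimated counts, were left out. The authors' TPM was summed per gene and used to compare levels between genes.

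Counts were rounded after summing per gene. The edgeR 4.0.16 package (R 4.3.3, TMM, filterByExpr) fitted a mean per group to all 16 libraries, with 8 residual degrees of freedom. Quasi-likelihood F tests were adjusted by Benjamini-Hochberg over 14972 genes, with a threshold of 0.05. Log2 fold changes are DM minus GM, MYOD-/- minus WT label, or MUNC minus EV. SEs were derived from the F statistic. The code was tested on simulated data. Alternatives were DESeq2 1.42.0, its size factors, no filter, a filter of 5 CPM in 2 libraries, limma 3.58.1 on log2(TPM + 1) and log2(TPM + 0.1), only the groups compared, a replicate block, and leaving out each library. The members, pathway and marker lists, and the naming rule (every member, up to 3 of the largest passing changes per pathway list and medium comparison, the 3 most similar genes with a mean of at least 1 CPM) were chosen with earlier results of these data known. The text gives examples of the pathway genes so named, and 1 of them is not reported here. Ampd1, with few counts, is left out of the likeness results.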

Additional observations from a re-analysis of the deposited data

Results flagged for a closer look

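The change of 3 enzymes with medium differed between lines by a test of the difference itself. Between the EV lines the log2 fold change from GM to DM was larger in the MYOD-/- labelled line by 3.70 for Ckb and by 5.40 for Pygm. Between MUNC and EV in the WT-labelled lines it was larger with MUNC by 3.20 for Ckb and 2.34 for Pygm, and smaller for Gys1 (-0.90). In the latter test Pygm lost its call without any 1 of 7 of the 8 libraries, on the log2(TPM + 1) scale (0.149) and in the fit of only the 4 groups (0.107), and Gys1 lost it without any 1 of 5 of the 8. Both tests share the WT-labelled EV libraries, in which Ckb had 1.03 and 1.1 CPM and Pygm 0.132 and 0.163 CPM in DM. Groups of 2 libraries were too small for a search for single libraries that stand apart.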

How the results depend on the processing

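Over 54 values of members and 670 alternative values, 587 kept their direction and side of the threshold, 50 lost the threshold, 20 gained it and 13 changed sign. For 47 pathway values, 429 of 555 were kept, 126 lost the threshold and 0 changed sign. Fitting only the groups compared, with fewer libraries, called 2283 of 14972 genes higher and 2149 lower by medium in the WT-labelled EV line. It called 2772 and 3084 in the WT-labelled MUNC line, and 4138 in either direction in the MYOD-/- labelled MUNC line. For the genotype label in GM it called 338 genes with EV and 101 with MUNC. In these fits the members called became 1 (WT-labelled EV by medium), 3 (WT-labelled MUNC by medium), 3 (MYOD-/- labelled MUNC by medium), and 0 for the genotype label in GM with EV and with MUNC. Without 1 library the counts ran from 1 to 3, 3 to 4, 3 to 5, 1 to 2 and 1 to 2 in these comparisons, and from 1 to 3 in the MUNC by medium difference. The genotype by medium difference had 4 called members by limma on log2(TPM + 1) or log2(TPM + 0.1). Changes of sign all concerned values that had not passed: Ckm in the WT-labelled EV line by medium (-1.22 to 2.97 without 1 library), Pygb there (0.00 with no filter, 0.14 by limma with either pseudocount, -0.07 to 0.01 without 1 library), Gys1 in the MYOD-/- labelled EV line (-0.01 in the groups alone, -0.08 to 0.12 without 1 library) and MUNC line (0.14 and 0.15 by limma), and MUNC against EV in the MYOD-/- labelled DM libraries for Ckb (-0.24 to 0.56 without 1 library) and Pygm (-0.29 to 0.23). The cause was not tested. The TPM scale moved the median log2 change of all genes with medium from 0.02 to 0.08 up to 0.09 to 0.19 on log2(TPM + 1) and 0.16 to 0.31 on log2(TPM + 0.1).

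Samples share only a replicate number. Deviations of same-numbered libraries correlated at 0.09 to 0.71 over 12 comparisons. With the replicate block 1 member (Ckb, adjusted p 0.0365) passed for MUNC in the WT-labelled line in GM, as by DESeq2 (1 member), and the block also brought past the threshold Phka1 by medium in the MYOD-/- labelled EV line (0.0405) and Pygb in the genotype by medium difference (0.033). The count of all genes called moved by over 1.5 times in the replicate block for the genotype label in GM (1550 to 2405 with EV, 1496 to 2379 with MUNC) and for the differences by medium (387 to 898 and 499 to 1033, against 997 and 1155 by DESeq2, 1046 and 944 by limma on log2(TPM + 1) and, for the first, 757 on log2(TPM + 0.1)). Only the groups compared gave 338, 101, 787 (MUNC in the WT-labelled line in GM, from 2060), 4138 (MYOD-/- labelled MUNC by medium, from 6707) and 159 (genotype by medium), and 3 from 0 for MUNC in the MYOD-/- labelled line in DM, where limma on log2(TPM + 1) gave 7, and 3 in GM. Without 1 library the differences by medium called 57 to 333 and 198 to 496 genes, and the count fell by over 1.5 times without at least 1 library for the genotype label (700 to 847 and 2606 to 3822 of 4699 with EV in GM and DM, 607 to 1573 and 1593 to 2361 of 3400 with MUNC), for MUNC in the WT-labelled line (963 to 1200, and 3140 to 4119 of 4980) and by medium in the MYOD-/- labelled EV line (4290 to 5841 of 6470). Depth limits Ckm in GM and Ampd1, Ckmt1, Ckmt2 and Pygl in every group.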
